A study of Mus musculus with 2 samples.

Results

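The genes described here build the sugar trees and lipid anchors that a cell attaches to secreted and surface proteins. They were compared between a culture of 46C mouse embryonic stem cells that overexpressed ID2 and a control culture of the same line. Members were chosen by symbol, from the families Alg, Dpm, Pig, Pgap, Mgat, Man1 and Man2, B3galt, B4galt and Galnt together with Dolk, Dolpp1, Dhdds, Dpagt1, Rpn1, Rpn2, Stt3a, Stt3b, Ddost and Dad1. Of 82 matching rows, 79 had a mean of both libraries of at least 50 and are the members, out of 12679 genes above the same floor and 14398 genes listed.

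Just inside the floor stood Galnt3, with a mean of 60.9, and B3galt4, with a mean of 69.0. The 3 rows under it were B3galt1, with a mean of 37.0, B3galt6, with 31.1, and Mgat4e, with 21.6. The choice by symbol is wider than N-glycans and GPI anchors. It also takes in the Galnt enzymes, which start mucin-type O-glycans, galactosyltransferases that act on glycolipids and proteoglycans, and mannosidases that degrade glycans.

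The ID2 library came from 46C cells carrying the construct labelled PB-ID2, and the control library from 46C cells with the vector labelled PB. 46C cells derive from the inner cell mass of the embryo and have GFP inserted at Sox1, a neural gene. Both cultures were at passages 21 to 24 and were kept on gelatin in serum medium with leukemia inhibitory factor, which sustains self-renewal. Whether the transfected cells were 1 clone or a pool is not given in the sources used here. Each group had 1 library, so differences carry neither an error nor a test. A gap between the libraries is a gap between 2 cultures, and fewer cells of a kind cannot be told apart from less RNA per cell. Values are the authors' normalized values per gene. Ratios are ID2 over control as log2((ID2 + 1)/(control + 1)), where 1 is the pseudocount, which understates the ratio of low genes. The depth behind the values is unknown.

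Id2, a helix-loop-helix protein that binds E proteins and keeps them off DNA, stood at 26225 in the ID2 library and 324 in the control library. All 10 listed markers of embryonic stem cells were above the floor, among them Pou5f1, Sox2 and Nanog, and 7 were higher in the ID2 library (median log2 ratio 0.16). Furthest apart were Zfp42 (0.85), Esrrb (0.48), Sox2 (0.37) and Utf1 (0.32). Of 12 fibroblast and feeder cell markers, 7 were listed and 5 were above the floor. Their values summed to 2420 in the ID2 library and 3714 in the control library, with 1 marker higher, Loxl1 (0.45), and 4 lower, among them Col1a1 (139 in ID2, 339 in control, −1.28), Mmp2 (−0.82) and Thy1 (−0.67). Under the floor, Col1a2 (7.03 in ID2, 39.8 in control, −2.34) and Tnc (7.03 in ID2, 28.9 in control, −1.89) were lower as well. Lum, Dcn, Postn, Col3a1 and Fbln5 had no value here. The part of such cells in the differences below was not tested.

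Dolichol is a long membrane lipid that serves as a carrier for sugars in the endoplasmic reticulum. A kinase charges it with phosphate, and a chain of ALG enzymes builds a branched oligosaccharide on it, which oligosaccharyltransferase passes as a whole to asparagines of new proteins. Mannose carried by dolichol phosphate is also used for glycosylphosphatidylinositol (GPI) anchors, glycolipids that hold proteins such as alkaline phosphatase and the Nodal co-receptor Cripto on the surface of embryonic stem cells. Mannosidases and MGAT enzymes later trim and branch the N-glycans in the Golgi.

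Dolk, the dolichol kinase, stood furthest apart of the members, at 307 in the ID2 library and 48.8 in the control library. With the pseudocount of 1 added to both values, the difference was 6.20-fold (log2 ratio 2.63). It was the 8th highest ratio of the 12679 genes. Alg11, a mannosyltransferase of the oligosaccharide, stood at 545 in the ID2 library and 251 in the control library (1.12). Dpm1, the catalytic subunit of dolichol phosphate mannose synthase, stood at 578 in the ID2 library and 1162 in the control library (−1.01), at the 2-fold threshold: with a pseudocount of 10 no member was 2-fold lower.

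In total 2 of 79 members reached 2-fold on the higher side in the ID2 library, beside 2.53% of all genes above the floor. On the lower side 1 member did, beside 1.86% of all genes. At 1.5-fold, 7 members were higher, beside 8.0% of all genes, and 4 were lower, beside 6.59% of all genes. The other 68 members were less than 1.5-fold apart. Ratios above 0 were found for 35 members, beside 49.8% of all genes, and ratios below 0 for 44 members, beside 50.2% of all genes. The median log2 ratio was −0.05 over the members and −0.0023 over all genes. The members' counts at both folds lay near the background, and the description below concerns single genes and their roles. Counts of higher and lower genes by role stand beside these same shares of 49.8% and 50.2%, and the roles hold few genes each.

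**Figure D1:**
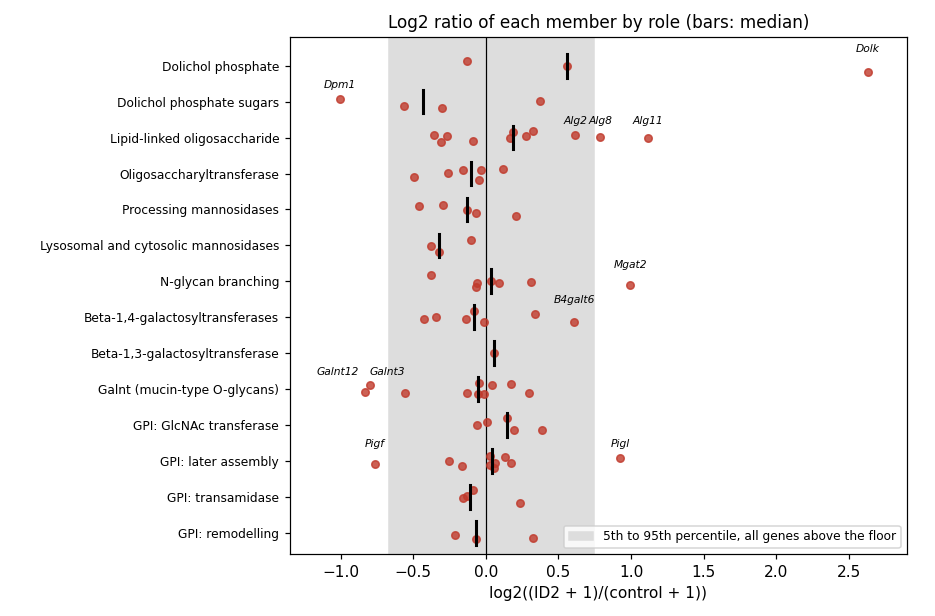
Log2 ratio of ID2 over control (horizontal axis) for the 79 members, grouped by role, with 1 point per gene, a black bar at each group's median and a grey band from the 5th to the 95th percentile of all 12679 genes (−0.67 to 0.74). Dolk lies far to the right of the band at 2.63 and Dpm1 furthest to the left at −1.01; members at least 1.5-fold apart are named.

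Because Dolk, Mgat2 and Dpm1 were among the members furthest apart and each starts close to a gene on the other strand, the stretch between the 2 starts is shown for each. Alg11 and Pigl also start close to such a gene, but no stretch is shown for them. Alg11 starts 416 bases from Atp7b (log2 ratio 0.19), and no start sequence of Alg11 was available. The exons of Pigl and its facing gene Ncor1 overlap. The sequences are RefSeq's for build GRCm38.p6, which is not the mm9 build named for the authors' processing. They are given 5′ to 3′ on the strand of the member, with 5 bases of annotated exon kept at either end. Capitals mark CANNTG, the general E-box letters, of which E proteins bind some forms. CANNTG reads the same on both strands.
Dolk: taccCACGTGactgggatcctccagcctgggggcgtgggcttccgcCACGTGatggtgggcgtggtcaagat
Mgat2: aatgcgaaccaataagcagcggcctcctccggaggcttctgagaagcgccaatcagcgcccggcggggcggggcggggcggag
Dpm1: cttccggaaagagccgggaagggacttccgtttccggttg
The Dolk stretch (chr2:30286330-30286401, minus strand) faces Nup188, the Mgat2 stretch (chr12:69184079-69184161, plus strand) faces Rpl36al, and the Dpm1 stretch (chr2:168230587-168230626, minus strand) faces Mocs3.

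The 62 bases between Dolk and Nup188, with their flanks, held 2 CANNTG matches. Both were CACGTG, the form bound by MYC and USF proteins, and are not shown here to be sites of E proteins. The Mgat2 and Dpm1 stretches held 0. In the 300-base RefSeq windows around gene starts, Dolk had 3 CANNTG matches. CANNTG is common: it occurred in 72.3% of all 32851 windows, in 63.5% of the windows of genes above the floor and in 59.5% of the 84 windows of 65 members. CACGTG, singled out after the Dolk sequence was seen, occurred in 9.52% of the members' windows (8 of 84), beside 10.2% of the windows of genes above the floor and 7.15% of all windows. At least 2 copies were found in 1 window of the members, that of Dolk (1.19%), beside 1.11% of the windows of genes above the floor and 0.594% of all windows. These matches are letters in a window and not measured binding.

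The gene facing Dolk did not share its difference. Nup188, a nuclear pore component, stood at 7629 in the ID2 library and 9205 in the control library (−0.27). Mocs3, which faces Dpm1 and works in molybdenum cofactor synthesis, went the other way from it, at 191 in the ID2 library and 55.7 in the control library (1.76). Rpl36al, which faces Mgat2, stood at 3818 and 3591 in the ID2 and control libraries (0.09). Mocs3 and Rpl36al are single-exon genes. Where 1 exon makes up 80% or more, 6.87% of coding genes were 2-fold higher and 1.41% lower. Mocs3 is also low, under 250 in both libraries. With means from 50 to 250, 6.99% of all genes were 2-fold higher and 5.92% lower. The part of level and exon structure in the ratio of Mocs3 was not tested, nor was that of a shared start region. Ncor1, a corepressor whose start lies 81 bases from that of Pigl, was higher together with it, at 20899 in the ID2 library and 11707 in the control library (0.84). Annotated exons of Pigl and Ncor1 share 82 bases in the full GENCODE annotation, and the library kit does not mark strand, so reads of these bases cannot be told apart.

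Starts within 1000 bases of a coding gene on the opposite strand were found for 18 of 79 members (22.8%), beside 16.4% of 11488 coding genes above the floor. Of these 18 members, 7 were at least 1.5-fold apart in either direction, beside 9.1% of the 1879 coding genes above the floor that have such a neighbour. Facing starts were looked at after values were known. Dolk, Mgat2 and Dpm1, which prompted the look, are among the 7, so this count is a description only. Of the 15 facing genes with a value, 3 were at least 1.5-fold apart, beside the same 9.1% and beside 14.6% of all genes above the floor.

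The dolichol phosphate genes were few and unlike each other. Dhdds, a subunit of the enzyme that makes the dolichol chain, stood at 547 in the ID2 library and 371 in the control library (0.56). Dolpp1, a phosphatase that recycles the carrier after use, stood at 1696 in the ID2 library and 1855 in the control library (−0.13). By value per kilobase of exon (length from GENCODE M21, not the authors' annotation), Dolk had 146, Dhdds 170 and Dolpp1 690 in the ID2 library. In the control library Dolk had 23.2, Dhdds 115 and Dolpp1 755. Dolk was the lowest and Dolpp1 the highest of the 3 in both, and Dolk lay close to Dhdds in the ID2 library.

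Dolk's own level limits how firmly its ratio can be read. Its mean of 178 falls in the range from 50 to 250, where ratios of all genes spread from −1.07 to 1.18 between the 5th and 95th percentiles. In that range 6.99% of 3090 genes reached 2-fold on the higher side and 5.92% on the lower. The authors' deposited table gives Dolk a p of 1.19e-04 and an adjusted p of 0.0555, the lowest of any member, and without replicates such p-values had no measured variation behind them.

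Of 4 genes of the enzymes that load sugars on dolichol phosphate, 3 were below 0, beside 50.2% of all genes. Their median was −0.43, and Dpm1, Dpm2 and Dpm3 are subunits of the same enzyme. Besides Dpm1, its membrane anchor Dpm3 stood at 291 in the ID2 library and 431 in the control library (−0.56). The third subunit, Dpm2, went the other way, at 866 in the ID2 library and 669 in the control library (0.37). Alg5, which makes dolichol phosphate glucose, stood at 369 in the ID2 library and 456 in the control library (−0.30). Per kilobase of exon, Dpm1 had 231 and Dpm2 607 in the ID2 library, where they lay apart. They were level in the control library, at 466 and 468 per kilobase, a match that rests on the exon lengths used, which are not the authors'. The annotation also holds a predicted gene on the strand of Dpm1, Gm20716, which shares 895 exon bases with it, so reads of these bases cannot be told apart.

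Among the 11 listed genes of the lipid-linked oligosaccharide, 7 stood higher and 4 lower (median 0.19). The 3 furthest apart were all higher and act in different places. Alg2 and Alg11 add mannoses in succession on the cytosolic side. Alg2 stood at 464 in the ID2 library and 303 in the control library (0.62). Alg8, which adds a glucose in the lumen, stood at 358 in the ID2 library and 207 in the control library (0.79).

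Alg2 and Alg11, next to each other in the chain, were both higher. Alg1, Alg3 and Alg6, which act next to Alg2, Alg11 and Alg8, stood lower, each by less than 1.5-fold. Alg1, which adds the first mannose, stood at 608 in the ID2 library and 731 in the control library (−0.27), just before the step of Alg2. Alg3, which adds the first lumenal mannose just after the step of Alg11, stood at 999 in the ID2 library and 1239 in the control library (−0.31). Alg6, which adds the glucose just before that of Alg8, was the lowest of the group, at 728 in the ID2 library and 933 in the control library (−0.36). Alg1, Alg3 and Alg6 thus stood lower beside higher neighbours in the chain.

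The remaining genes of the chain lay between −0.09 and 0.33. Dpagt1, which starts the chain and is the target of tunicamycin, stood at 479 in the ID2 library and 396 in the control library (0.27). Alg13, part of the transferase of the second sugar, stood at 7601 in the ID2 library and 8089 in the control library (−0.09). Its partner Alg14 stood at 157 in the ID2 library and 139 in the control library (0.17). The annotation used here gives Alg13 a short model, so its level per kilobase is not compared.

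**Figure D2:**
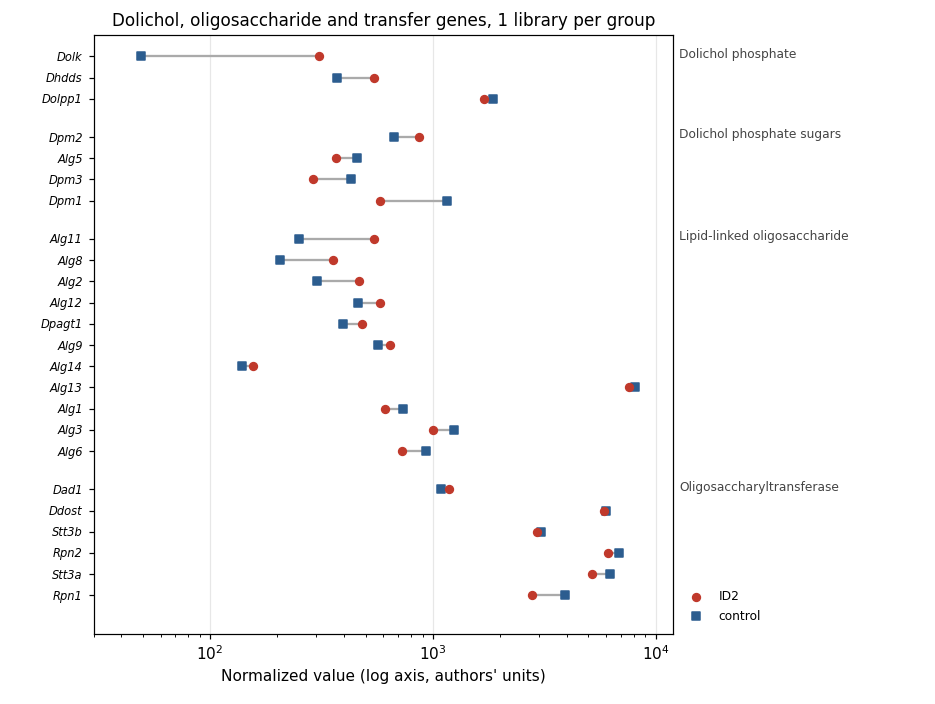
Normalized values (horizontal log axis, authors' units) of the genes of dolichol phosphate, its sugars, the lipid-linked oligosaccharide and oligosaccharyltransferase, with a red circle for the ID2 library and a blue square for the control library, joined by a grey line. The long lines are those of Dolk (307 in ID2, 48.8 in control), Dpm1 (578 in ID2, 1162 in control) and Alg11 (545 in ID2, 251 in control), while oligosaccharyltransferase genes sit at the right with short lines.

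Oligosaccharyltransferase genes had a median of 825 per kilobase of exon in the ID2 library and 1070 in the control library, beside 224 in the ID2 library and 211 in the control library over the 78 members other than Alg13. Of 6 members, 5 stood lower and 1 higher (median −0.10). No member was 1.5-fold apart, beside 14.6% of all genes above the floor. All 6 had means over 1000, where 2.97% of genes were 1.5-fold higher and 1.74% lower. The catalytic subunits, which head alternative forms of the enzyme, were Stt3a, at 5191 in the ID2 library and 6219 in the control library (−0.26), and Stt3b, at 2950 in the ID2 library and 3047 in the control library (−0.05). Rpn1, the ribophorin I subunit, had the widest gap, at 2781 in the ID2 library and 3925 in the control library (−0.50).

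The other subunits differed less. Rpn2, ribophorin II, stood at 6140 in the ID2 library and 6842 in the control library (−0.16). Ddost stood at 5862 in the ID2 library and 6007 in the control library (−0.04), and per kilobase of exon it was the highest of the 6 in both libraries (2765 in ID2, 2833 in control). Dad1, a small subunit named for its defense against cell death, was the 1 higher gene, at 1186 in the ID2 library and 1093 in the control library (0.12). It was the lowest of the 6 per kilobase (303 in ID2, 279 in control). That rank rests on an exon length of 3.92 kilobases, which is not from the authors' annotation.

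Of 5 trimming mannosidases, 4 were below 0, beside 50.2% of all genes, and the median was −0.13. Man2a1, a Golgi mannosidase II, stood at 937 in the ID2 library and 1291 in the control library (−0.46), and its paralog Man2a2 at 2058 in the ID2 library and 2526 in the control library (−0.30). Man1b1, a mannosidase of the early secretory pathway that also marks misfolded glycoproteins, stood at 3169 in the ID2 library and 3326 in the control library (−0.07). Man1a2 was the 1 higher gene (0.21). The degradative enzymes were all lower: Man2b2 at −0.38, Man2b1, the lysosomal alpha-mannosidase, at −0.33 (3143 in ID2, 3940 in control), and Man2c1, which acts on free glycans in the cytosol, at −0.11.

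Of the branching enzymes, Mgat2 stood apart. It adds the GlcNAc that turns a hybrid glycan into a complex one, and stood at 800 in the ID2 library and 401 in the control library (0.99), just short of 2-fold. The enzyme before it in the path, Mgat1, stood at 561 in the ID2 library and 585 in the control library (−0.06). The other branching enzymes lay between −0.37 for Mgat4b and 0.31 for Mgat5, which makes the branch that carries long lactosamine chains. Mgat3, which adds the bisecting GlcNAc, stood at 1164 in the ID2 library and 1093 in the control library (0.09). Altogether 4 of 7 were higher, with a median of 0.03.

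Galactosyltransferases were mixed. B4galt6, which with B4galt5 makes lactosylceramide, the base of most glycolipids, stood at 2215 in the ID2 library and 1451 in the control library (0.61), the largest ratio of the 7 B4galt genes. B4galt5 stood at 1873 in the ID2 library and 1483 in the control library (0.34). The other 5 were below 0, among them B4galt1, which acts on N-glycans (−0.08), B4galt7, which builds the linker of proteoglycans (−0.34), and B4galt2 (−0.43). The median of the group was −0.08. B3galt4, a ganglioside enzyme, stood at 70.3 in the ID2 library and 67.7 in the control library (0.06).

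The Galnt enzymes had 3 of 10 members higher and a median of −0.05. Galnt12 stood at 185 in the ID2 library and 330 in the control library (−0.83), and Galnt3 at 44.2 in the ID2 library and 77.6 in the control library (−0.80). Galnt1 stood at 1472 in the ID2 library and 1198 in the control library (0.30). Galnt4 stood at −0.56, and the other 6 lay between −0.13 and 0.17.

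Of 22 GPI anchor genes, 13 stood higher and 9 lower, and the median was 0.03. At least 1.5-fold apart in either direction were 2 of the 22, beside 14.6% of all genes above the floor. The enzyme that starts the anchor by putting GlcNAc on phosphatidylinositol had 4 of 5 listed subunits higher and a median of 0.14. Piga, its catalytic subunit, stood at 1076 in the ID2 library and 942 in the control library (0.19). Pigq stood at 2200 in the ID2 library and 1990 in the control library (0.14), and per kilobase of exon it was the highest of the 5 (543 in ID2, 492 in control).

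The remaining subunits of this enzyme lay below Piga per kilobase of exon in both libraries. Pigc stood at 219 in the ID2 library and 167 in the control library (0.39). Pigh stood at 330 in the ID2 library and 343 in the control library (−0.06). Pigp stood at 255 in the ID2 library and 254 in the control library (0.01), a gap so small that its sign turned when the size factors were left out.

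The step after this one held the largest gap of the pathway. Pigl, the deacetylase that acts on the new GlcNAc, stood at 1196 in the ID2 library and 630 in the control library (0.92). Pigw, which then adds an acyl chain to inositol, stood at 205 in the ID2 library and 201 in the control library (0.03). The mannosyltransferases followed closely in both libraries: Pigm at 0.13, its partner Pigx at −0.26, Pigv at 0.05 and Pigb at 0.06.

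Pigf, a partner of the enzymes that add ethanolamine phosphate, stood at 221 in the ID2 library and 376 in the control library (−0.76). Its catalytic partners were closer, with Pigo at 1529 in the ID2 library and 1502 in the control library (0.03), and Pigg at 506 in the ID2 library and 568 in the control library (−0.17). Pign, which modifies the first mannose, stood at 0.17. Pigf shares 312 exon bases with Rhoq on the opposite strand, which stood at 527 in the ID2 library and 467 in the control library (0.17).

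**Figure D3:**
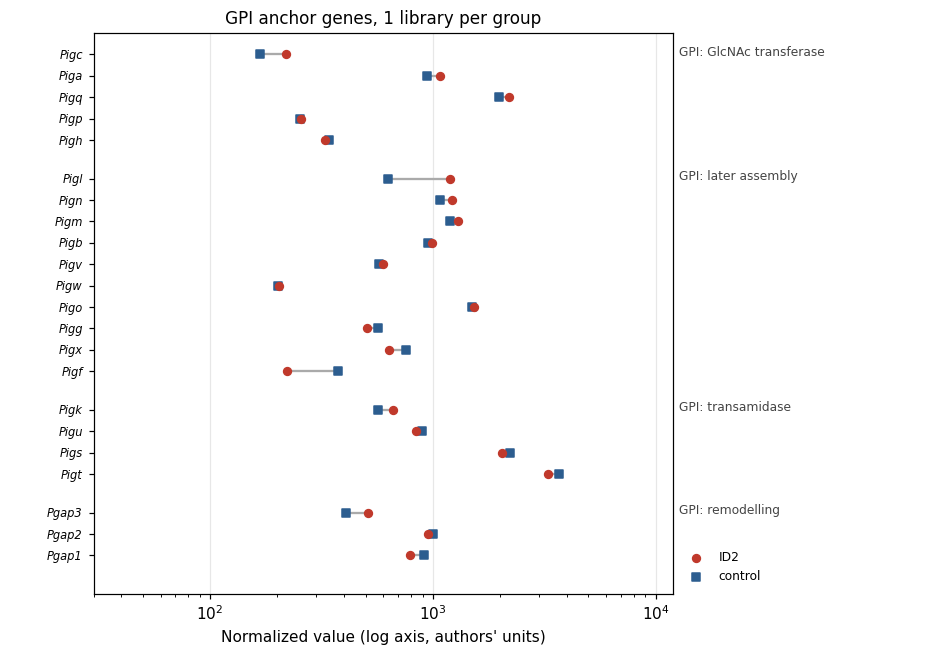
Normalized values (horizontal log axis, authors' units) of the 22 GPI anchor genes, with a red circle for the ID2 library and a blue square for the control library, joined by a grey line. Pigl (1196 in ID2, 630 in control) and Pigf (221 in ID2, 376 in control) have the longest lines, and they point in opposite directions.

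The GPI transamidase, which joins the finished anchor to proteins, was close in both libraries. Pigk, its protease subunit, stood at 665 in the ID2 library and 565 in the control library (0.23). Pigt stood at 3294 in the ID2 library and 3669 in the control library (−0.16). Pigs stood at 2044 in the ID2 library and 2232 in the control library (−0.13). Pigu stood at 840 in the ID2 library and 894 in the control library (−0.09), so the 3 lower subunits shared a small gap. Gpaa1, the remaining subunit, which the choice by symbol leaves out, had a ratio of 0.09. Of the genes that remodel the attached anchor, Pgap3 stood at 509 in the ID2 library and 407 in the control library (0.32), Pgap2 at 955 in the ID2 library and 999 in the control library (−0.07), and Pgap1, the inositol deacylase, at −0.21.

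Level and spread went together. Of 28 members with a mean of at least 1000, 1 was 1.5-fold higher and 0 lower, beside 2.97% and 1.74% of 5459 genes in that range. Of 42 members with means from 250 to 1000, 5 were 1.5-fold higher and 3 lower, beside 7.65% and 5.91% of 4130 genes. The 9 members under 250 had 1 higher and 1 lower, beside 17.3% and 16.1% of 3090 genes.

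Members also differed by exon structure, a property looked at after values were known. In 12 members at least 80% of the longest coding transcript lies in 1 exon, and in 6 of these the transcript is a single exon: Dolk, Mgat2, Pigm, Pigc, Galnt4 and B3galt4. Of the 12, 10 were higher and 2 lower (median 0.12), and 3 were at least 1.5-fold higher, namely Dolk, Mgat2 and Alg2. Of the other 67 members, 25 were higher and 42 lower (median −0.07), with 4 higher and 4 lower by 1.5-fold or more. The same split ran through all coding genes: 60.0% of 1703 genes of this structure were higher, beside 48.7% of the other 9785. At 1.5-fold, 18.0% of genes of this structure were higher and 5.87% lower, beside 5.79% higher and 5.86% lower among the others. At 2-fold these shares were 6.87% and 1.41% for this structure and 1.54% and 1.44% for the others. The part of exon structure in the values of Dolk and Mgat2 was not tested. The single-exon members had log2 ratios of 2.63 for Dolk, 0.99 for Mgat2, 0.39 for Pigc, 0.13 for Pigm, 0.06 for B3galt4 and −0.56 for Galnt4.

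**Figure D4:**
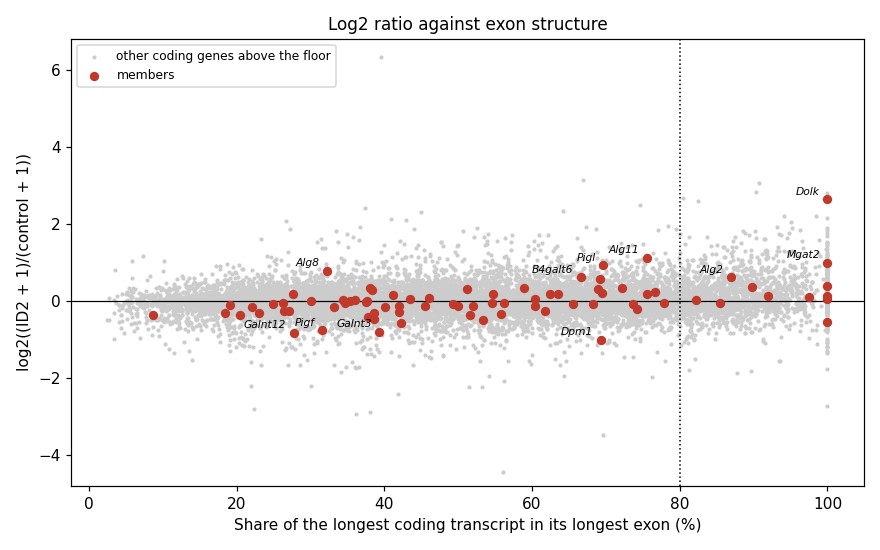
Log2 ratio of ID2 over control (vertical axis) against the share of the longest coding transcript that lies in its longest exon (horizontal axis, percent), with members in red and other coding genes above the floor in grey. Right of the dotted line at 80%, 10 of 12 members lie above 0, and Dolk and Mgat2 stand at 100%.

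Genes of the same pathway that the symbols leave out were described from a list. All 26 were above the floor. Of them 19 were lower, beside 50.2% of all genes, and 7 higher, at a median of −0.10. Gmppb, which makes the mannose donor GDP-mannose, stood at 478 in the ID2 library and 283 in the control library (0.76), and Pmm2, a phosphomannomutase upstream of it, at 602 in the ID2 library and 426 in the control library (0.50). Mogs, the glucosidase that first trims the transferred glycan, stood at 1238 in the ID2 library and 969 in the control library (0.35). Man1a, a trimming mannosidase, stood at 62.3 in the ID2 library and 107 in the control library (−0.78). Nus1, the partner of Dhdds in making dolichol, had a ratio of −0.20, and Srd5a3, the reductase that completes it, 0.29.

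Folding and quality control of glycoproteins had 6 of 15 genes higher and a median of −0.04. None was 1.5-fold apart, beside 14.6% of all genes above the floor. Edem2, which helps to route misfolded glycoproteins to degradation, stood at 997 in the ID2 library and 1474 in the control library (−0.56). Ngly1, which strips glycans from such proteins, stood at 123 in the ID2 library and 89.6 in the control library (0.45). Erlec1, a lectin of the same degradation route, stood at 458 in the ID2 library and 563 in the control library (−0.30). The lectin chaperones were both lower: Calr at 18394 in the ID2 library and 24310 in the control library (−0.40), and Canx at −0.26.

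Proteins that carry GPI anchors were also listed. Of 24, 20 were above the floor, of which 9 stood higher and 11 lower (median −0.24). None was 1.5-fold higher, beside 8.0% of all genes, and 6 were at least 1.5-fold lower, beside 6.59% of all genes. Efna1, an ephrin, stood at 118 in the ID2 library and 261 in the control library (−1.14), and Gas1, a growth arrest protein, at 49.2 in the ID2 library and 103 in the control library (−1.06). Bst2 stood at −0.84 and Gpc3, a glypican, at −0.73. Tdgf1, the gene of Cripto, stood at 0.01 and Alpl, alkaline phosphatase, at −0.30 (6501 in ID2, 7987 in control). Thy1 (−0.67) is also among the fibroblast markers above, of which 4 of 5 above the floor were lower in the ID2 library.

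The authors' deposited table gives 5 members an unadjusted p under 0.05, beside 4.33% of the genes above the floor, and 0 an adjusted p under 0.05, beside 0.205% of them. After Dolk, the authors' deposited table gives Dpm1 an unadjusted p of 0.00621, Pigl 0.0109, Mgat2 0.0151 and Alg11 0.0178. In the authors' deposited table the lowest adjusted p of these 4 was 0.606, for Dpm1.

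Overlapping annotation touches several members. In the basic gene set of GENCODE, exon bases shared with another gene were found for 23 members, in 20 with a gene on the opposite strand and in 6 on the same strand. Among the members furthest apart these were Dpm1, Pigf and Mgat2, which shares 58 bases with a predicted gene.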

How the data were processed

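RNA from 2 cultures of 46C cells was sequenced, 1 library per group, from libraries that do not keep strand. STAR, DESeq and build mm9 are named, per the submitters' processing notes; no version, annotation or counter is named in those sources. The authors deposited 1 table with a normalized signal per gene and library, their mean, a fold (ratio) of ID2 over control, its log2, and p-values before and after adjustment. The deposited signal values were whole multiples of 1 step per library within 0.01 of a step, and the sorted whole numbers of both libraries were identical (0 ranks differed), so depth cannot be recovered and no count test was run.

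With Python 3.11.15 and pandas 2.3.3, log2 ratios were computed with a pseudocount of 1 for genes with a mean of at least 50. No test was possible with 1 library per group; members are described by folds of 2 and 1.5 beside all genes. The counting was checked on simulated data. Exon structure, lengths per kilobase (1000 bases) and neighbours came from GENCODE M21, where all 79 members matched. Values were printed for members at least 1.5-fold apart, the highest and the furthest of each role, all members of small complexes, and the 4 furthest of other lists; further genes were named after their values were seen. Members and lists were chosen with earlier results of these data known. Alternatives were pseudocounts, scaling, floors, folds, narrower sets and the authors' log2 column.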

Additional observations from a re-analysis of the deposited data

How the results depend on the processing

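No paired analysis was possible because each group had 1 library, and for the same reason no replicate could be left out. Of 190 recomputed values, 180 stayed within tolerance (0.1 on the log2 scale, 1.5 times for a count) and 10 moved. Members at least 2-fold higher numbered 4 with no floor (B3galt6 and Mgat4e joined), 1 with a floor of 250 (Dolk was left out), 7 at 1.5-fold and 1 without the 12 members whose transcript lies mostly in 1 exon (80% or more), an alternative chosen after seeing the data. Members at least 2-fold lower numbered 4 at 1.5-fold and 0 with a pseudocount of 10, since Dpm1 lay at the threshold. With a floor of 250 the dolichol phosphate median was 0.21, and with no floor the fibroblast marker median was −0.82. With a pseudocount of 10, Dolk had a log2 ratio of 2.43 and Galnt3 −0.69. On whole steps before the size factors, also chosen after seeing the data, 34 members were higher, since Pigp changed sign. These alternatives share the same 2 libraries, so agreement between them says nothing about replicate spread, and the depth that would set a counting error is unknown.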

Other observations

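B3galt6, an enzyme of the proteoglycan linker and a single-exon gene, was under the floor, at 52.3 in the ID2 library and 9.95 in the control library (log2 ratio 2.28). Mgat4e, also under the floor, stood at 32.2 in the ID2 library and 10.9 in the control library (1.47), and B3galt1 at 40.2 in the ID2 library and 33.8 in the control library (0.24). Relatives that the choice by symbol leaves out, named after their values were seen, were Alg10b, the last glucosyltransferase of the oligosaccharide, at 954 in the ID2 library and 1047 in the control library (−0.13), and Pigyl, at 1131 in the ID2 library and 1375 in the control library (−0.28).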
